A study of Mus musculus with 7 samples.

Results

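The 10 genes described here encode subunits of the THO complex and factors that carry mRNA out of the nucleus, namely Thoc1, Thoc2, Thoc3, Thoc5, Thoc6, Thoc7, Ddx39b, Nxf1, Nxt1 and Zc3h11a. They are 10 of the 34592 genes in the count table, and all 10 were found in it. They were listed by function and selected on the contrast between the tumor groups, in which Thoc1 was among the clearest higher genes. Their differences between the groups are therefore a description, given without a p, and support nothing on their own.

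Messenger RNA leaves the nucleus as a particle that is built while the gene is transcribed. The THO complex joins the nascent transcript and, with the RNA helicase DDX39B and adaptor proteins such as ALYREF, forms the TREX complex. The adaptors then hand the mRNA to the export receptor, a dimer of NXF1 and NXT1 that passes through the nuclear pore, and ZC3H11A is a zinc finger protein that associates with TREX.

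RNA was sequenced from 7 mouse Group 3 medulloblastomas (G3 MBs), of which 3 were controls and 4 were labelled WDR11OE, for enforced expression of human WDR11. The series was designed to find the genes that differ between these groups. The tumors grew from tumorspheres, made from granule neuron progenitors that carried a retrovirus for Myc and a fluorescent protein. The study used more than 1 tumorsphere line, and its methods for the sequencing do not name the line. By the study's methods the progenitors came from Trp53−/−; Cdkn2c−/− mice. The spheres were infected, without sorting, with a lentivirus in which the EF1 promoter drove WDR11 and copGFP, or with its empty vector, and were implanted in the cortices of CD1-nu/nu mice. The labels give the treatment of the controls as none, whereas the methods describe the empty vector, and the age of the hosts is not given in the labels. The study's methods name both tumorspheres and chunks of tumors as sources of RNA, and its abstract speaks of tumorspheres. Where chunks were used, cells of the host brain could be included. In such bulk samples fewer cells of a type and less RNA per cell cannot be told apart. The libraries of the 2 groups carry names from separate number series, and each series held tumors of 1 group only, so a difference between the series and one between the groups cannot be told apart. The titles of WDR11OE replicates 1 and 2 share a number whose meaning is not stated. Nothing in the labels says that the 4 WDR11OE tumors were independent infections, so the p-values measure the spread between these tumors.

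Total counts were 35463784, 41397427 and 33417175 in control replicates 1 to 3, and 42252257, 85371523, 32116095 and 87141305 in WDR11OE replicates 1 to 4. The 10 genes were well covered, since the lowest count of any of them in a tumor was 557, for Thoc6 in control replicate 1. All values below are CPM, the count of a gene scaled to a common library size after TMM, and a log2 fold change compares the tumors labelled WDR11OE with control.

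The overexpressed gene was looked at first, as a check of the labels. The count table has a row for human WDR11, which read 2.03, 2.19 and 3.13 CPM in control replicates 1 to 3. The same row read 4.38, 2.11, 3.05 and 0.624 CPM in WDR11OE replicates 1 to 4. The groups overlapped, and both the highest and the lowest value were in tumors labelled WDR11OE (two-sided exact permutation test over 35 splits of the tumors, p = 0.83). The value of replicate 4 rested on 57 counts, with an exact Poisson 95% interval from 0.473 to 0.809 CPM that covers counting error only, and it lay below every control. That of replicate 1 rested on 185 counts, with such an interval from 3.77 to 5.06 CPM, and it lay above every control. Mouse Wdr11 read 58.9, 58.3 and 59.3 CPM in the controls and 66.8, 61.0, 65.7 and 68.9 CPM in the tumors labelled WDR11OE, all above the controls (exact permutation test, p = 0.0571). The log2 fold change of Wdr11 was 0.16 (edgeR adjusted p = 0.091). Over the other settings its adjusted p ran from 0.0454 with upper quartile scaling, the only setting in which it was called, to 0.908 with the trend on GC content removed, where the log2 fold change was −0.025. Taken over the group, the row for the human gene does not follow the label, and the group is called "labelled WDR11OE" for that reason. Whether the label, the counting of this row or something else lies behind this was not tested. Every direction given below is a difference between tumors with these labels. In these counts the row for the human gene was not higher across the group.

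Further genes of the model were read in the same way. Myc, which the retrovirus carries, was at 1109, 821 and 812 CPM in the controls and at 390, 431, 278 and 289 CPM in the tumors labelled WDR11OE, a log2 fold change of −1.40 (edgeR adjusted p = 0.00227). Trp53 and Cdkn2c had counts in every tumor, with Trp53 at 27.8 CPM or more and Cdkn2c at 15.2 CPM or more, although the methods describe progenitors that lack both genes. Counts on a gene do not show whether its deleted exons were read, and this was not tested.

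Of the 17389 genes that passed the filter on low counts, 3150 (18.1%) were called higher and 2744 (15.8%) lower in the tumors labelled WDR11OE at an adjusted p under 0.05 (edgeR quasi-likelihood test). All 10 export genes passed the filter. The same rule was met by 3 of them in the higher direction, Thoc1, Thoc2 and Nxt1, and by 3 in the lower direction, Thoc3, Ddx39b and Zc3h11a. Nothing is read from these counts, since the genes were selected on this contrast. The rule of the study also asks for a 2-fold difference and a mean log2 CPM over 0. Under it, 2.36% of tested genes were higher and 3.45% lower, and Thoc1 alone of the 10 met it, with a fold of 2.01. This value lies at the edge of the rule, which Thoc1 met in 8 of 18 settings, the reported one included. The groups did not overlap for 23.5% of tested genes in the higher and 19.1% in the lower direction, and for 5 and 3 of the 10 genes.

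Thoc1, a core subunit of THO, lies on chromosome 18 (9958178 to 9995482, plus strand, NCBIM37). It was measured at 51.2, 49.4 and 51.6 CPM in control replicates 1 to 3 and at 103, 99.0, 102 and 103 CPM in WDR11OE replicates 1 to 4. The tumors within a group were nearly alike, and every tumor labelled WDR11OE was above every control. The controls averaged 50.7 ± 1.18 CPM (SD, n = 3), and the tumors labelled WDR11OE averaged 102 ± 2.00 CPM (SD, n = 4). The log2 fold change was 1.004 (SE 0.05). The coefficient of variation within a group was 2.33% and 1.96%.

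Thoc2, the largest subunit and the scaffold of the complex, lies on chromosome X (39148168 to 39273851, minus strand). It was measured at 139, 122 and 126 CPM in control and at 203, 205, 208 and 208 CPM in the tumors labelled WDR11OE. All 4 of these were above the controls and spanned a narrow range, with a coefficient of variation of 1.04%. The log2 fold change was 0.67 (SE 0.07).

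Thoc3, a subunit with WD repeats on chromosome 13 (54560198 to 54570210, minus strand), differed in the other direction. It was measured at 49.9, 49.0 and 64.1 CPM in control and at 33.3, 37.9, 37.2 and 31.1 CPM in the tumors labelled WDR11OE. All 4 were below every control, and control replicate 3 stood above the other controls. The log2 fold change was −0.64 (SE 0.12). Within each tumor the ratio of Thoc1 to Thoc3 CPM, which does not depend on library scaling, was between 0.804 and 1.03 in control and between 2.61 and 3.31 in the tumors labelled WDR11OE. This ratio was taken after the direction of both genes was known and carries no test.

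The other subunits of THO differed less. Thoc5 was measured at 31.8, 36.7 and 36.8 CPM in control and at 51.8, 43.2, 37.71 and 39.8 CPM in the tumors labelled WDR11OE. The 2 groups came close and did not overlap, and WDR11OE replicate 1 was the highest. For Thoc6 the controls ranged from 15.5 to 21.6 CPM and the tumors labelled WDR11OE from 18.3 to 25.4 CPM, and for Thoc7 from 37.3 to 48.1 CPM and from 45.3 to 48.8 CPM. Both genes overlapped between the groups. The log2 fold changes were 0.30 (SE 0.12) for Thoc5, 0.27 (SE 0.16) for Thoc6 and 0.12 (SE 0.09) for Thoc7, and none of these genes met the call rule.

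Ddx39b, the helicase of TREX, lies on chromosome 17 (35378691 to 35390652, plus strand). It was measured at 267, 267 and 312 CPM in control and at 247, 242, 224 and 211 CPM in the tumors labelled WDR11OE, all below the controls. The log2 fold change was small, −0.29 (SE 0.09). Its close paralog Ddx39a, listed as Ddx39, ranged from 71.8 to 92.0 CPM in control and from 88.8 to 121 CPM in the tumors labelled WDR11OE, and was not called (edgeR adjusted p = 0.0535). It was called with library size or upper quartile scaling, and without control replicate 3 or WDR11OE replicate 3 or 4, at log2 fold changes between 0.43 and 0.56. The ratio of Ddx39b to Ddx39 CPM was 3.61 ± 0.19 (SD, n = 3) in control and 2.19 ± 0.23 (SD, n = 4) in the tumors labelled WDR11OE, again a description.

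Nxf1, the large subunit of the export receptor, was at 95.2, 108 and 107 CPM in control and at 119, 114, 110 and 109 CPM in the tumors labelled WDR11OE. The values of the groups nearly met, and the gene did not meet the call rule. Its partner Nxt1 was at 16.4, 17.95 and 20.8 CPM in control and at 24.7, 25.2, 22.7 and 21.4 CPM in the tumors labelled WDR11OE, with a log2 fold change of 0.35 (SE 0.11). The lowest of these 4 values and the highest control were close. Zc3h11a was at 258, 207 and 237 CPM in control and at 203, 179, 199 and 179 CPM in the tumors labelled WDR11OE, a log2 fold change of −0.30 (SE 0.10). Its controls spanned a wider range than the gap between the group means, and WDR11OE replicate 1 lay just under control replicate 2. The calls of Ddx39b, Nxt1 and Zc3h11a were lost under most other settings, and of 18 settings, the reported one included, they were made in 4, 6 and 5. Over these settings the log2 fold change ran from −0.36 to −0.12 for Ddx39b, from 0.14 to 0.45 for Nxt1 and from −0.46 to −0.23 for Zc3h11a. Among these settings, those of Thoc2 and Thoc3 were lost only with the dependence on GC content taken out, where the log2 fold change of Thoc2 was 0.09 and that of Thoc3 −0.59.

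**Figure D1:**
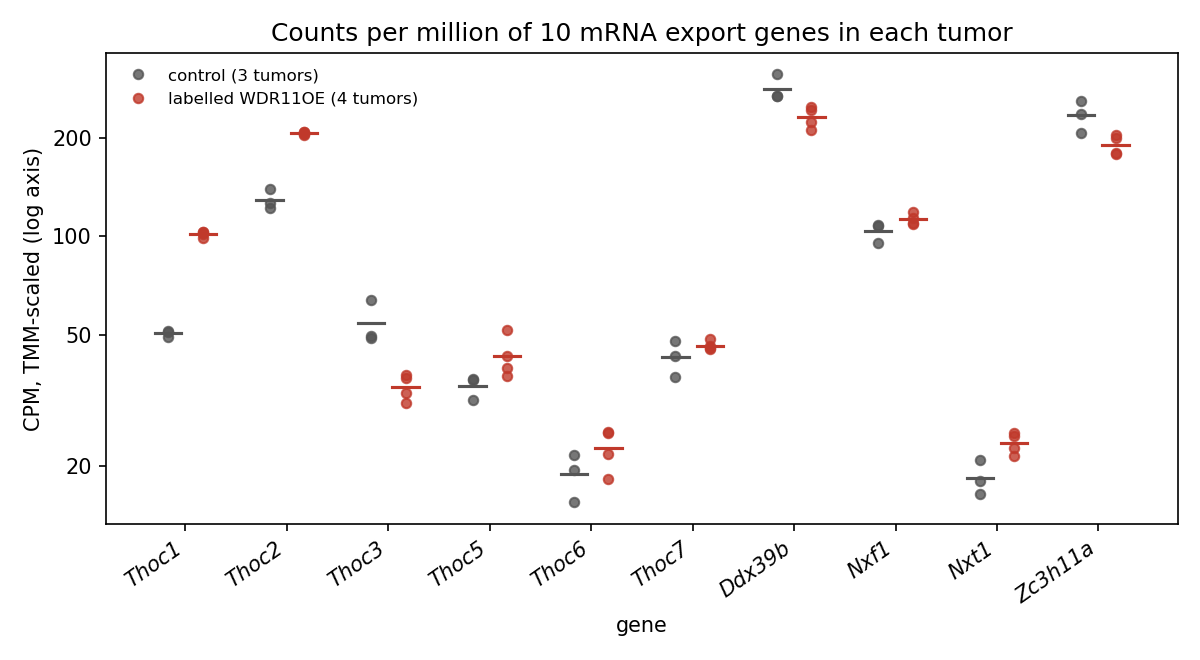
CPM, scaled by TMM and on a log axis, of the 10 export genes in each of 3 control tumors (grey) and 4 tumors labelled WDR11OE (red), where a point is a tumor and a bar is the group mean. Thoc1 was at 50.7 CPM on average in control and at 102 CPM in the tumors labelled WDR11OE, while Thoc6 and Thoc7 overlapped between the groups.

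Levels were compared between genes as CPM per kb of merged exons. In control, Ddx39b was the highest of the 10 at 74.5 ± 6.78 (SD, n = 3), followed by Zc3h11a at 53.2 ± 5.85, Thoc7 at 48.6 ± 6.16 and Nxf1 at 45.4 ± 3.19, and neighbors among the last 3 were within their spread of each other. Thoc3 followed at 22.4 ± 3.49 and Nxt1 at 16.5 ± 2.01. Thoc1 at 13.2 ± 0.307, Thoc5 at 12.3 ± 0.999, Thoc2 at 10.2 ± 0.722 and Thoc6 at 9.30 ± 1.54 CPM per kb came last. In the tumors labelled WDR11OE, Ddx39b was again first, at 61.1 ± 4.41 (SD, n = 4), and Thoc6 last, at 11.2 ± 1.66 CPM per kb. Thoc1 stood at place 5 there in place of 7, and Thoc3 at place 9 in place of 5. With the length of the longest transcript, Thoc2 rose from 10.2 to 17 CPM per kb in control, so the places of Thoc1, Thoc2 and Nxt1 depend on the length used.

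Among the 6 THO subunits, Thoc7 took the most of their summed level per kb, between 39.9% and 43.0% in control and between 38.1% and 39.4% in the tumors labelled WDR11OE. The share of Thoc1 was 12.6%, 11.2% and 10.5% in control and 18.8%, 18.7%, 19.7% and 20.5% in the tumors labelled WDR11OE. That of Thoc3 was 19.4%, 17.7% and 20.7% in control and 9.62%, 11.3%, 11.4% and 9.84% in the others. The subunits are held in fixed proportions in the protein complex, and RNA shares do not give those of the proteins.

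Exon GC content moved with the fold changes. Over 14919 tested protein-coding genes the median log2 fold change was 0.39 in the fifth of lowest GC content and −0.22 in the fifth of highest, and 40.2% and 4.36% of these genes were called higher. Across genes, which are not independent replicates, Spearman's rho between GC content and log2 fold change was −0.35 over all protein-coding genes, −0.34 over the 10 export genes and −0.67 over 52 other export genes. Every control had a positive rho between its log ratio to the mean tumor and GC content, from 0.24 to 0.34, and every tumor labelled WDR11OE a negative one, from −0.32 to −0.17. Thoc2 and Thoc1 had the lowest GC content of the 10, at 36.5% and 38.5%. With the trend of each tumor taken into the offset of the same fit, the log2 fold change of Thoc1 was 0.52 in place of 1.004, and that of Thoc2 was 0.09 in place of 0.67. Thoc3, at 52.4%, was at −0.59 and no longer met the call rule, and Thoc7, at 41.3%, changed sign to −0.23. Values further from 0 were seen for Zc3h11a, at −0.46 in place of −0.30, for Thoc6, at 0.45 in place of 0.27, for Nxt1, at 0.43 in place of 0.35, and for Thoc5, at 0.34 in place of 0.30. Those of Ddx39b, at −0.12 in place of −0.29, and of Nxf1, at 0.07 in place of 0.12, were nearer to 0. Of the 10 genes, Thoc1 alone met the call rule in this fit, beside 4.43% of all tested genes called higher and 9.21% lower. Thoc1 was selected on this contrast, so its call supports nothing on its own. The correction takes out whatever follows GC content, whether it arose in the library or in the tumor, and these cannot be told apart here.

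**Figure D2:**
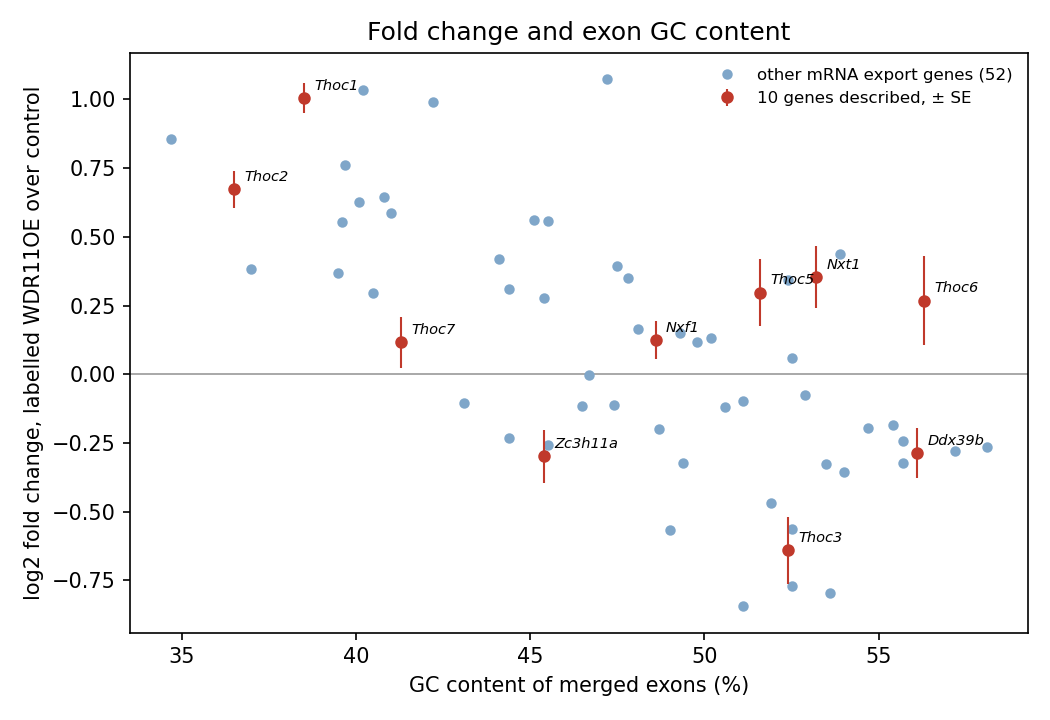
Log2 fold change, tumors labelled WDR11OE over control, against the GC content of merged exons in percent, for the 10 export genes (red, bars are SE of the fit) and 52 other mRNA export genes (blue). Genes of low GC content, such as Thoc1 at 38.5% and Thoc2 at 36.5%, lie mostly above 0.

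The other genes of mRNA export were taken from a list of 54 written by function, of which 52 were tested. In the tumors labelled WDR11OE, 14 (26.9%) were called higher and 10 (19.2%) lower, beside 18.1% and 15.8% of all tested genes, and their median log2 fold change was 0.03 beside 0.09. These counts moved with single tumors. The other export genes called lower were 5 and 4 without control replicates 2 and 3, and 6 without WDR11OE replicate 1. In these fits 12.3%, 11.7% and 11.8% of all tested genes were called lower. Of all tested genes, 9.12%, 9.65% and 11.6% were called higher without WDR11OE replicate 1, WDR11OE replicate 2 and control replicate 2, beside 11, 11 and 13 of the other export genes. With the GC trend removed, 2 other export genes were called higher, Shfm1 and Magoh, and 3 lower, Casc3, Ddx19a and Nup214. Of all tested genes, 4.43% were called higher and 9.21% lower in that fit. The other calls of export genes described below were lost. Among these, the log2 fold change of Acin1 was −0.50 in place of −0.56 and the log2 fold change of Nup50 was −0.60 in place of −0.57, while that of Cetn3 was 0.17 in place of 0.86 and that of Xpo1 0.23 in place of 0.63. With the exon length trend removed, 7 other export genes were called higher and 4 lower, beside 7.73% and 9.5% of all tested genes. Among the export genes described below, the calls of Mcm3ap, Pcid2, Acin1, Srsf7, Nup88, Nup50, Xpo1 and Fyttd1 were then lost. Their log2 fold changes were −0.23, −0.39, −0.40, 0.56, 0.53, −0.49, 0.77 and 0.48.

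All 6 genes of TREX-2, which ties transcribed genes to the pore, were called in the reported fit, 4 higher and 2 lower (66.7% and 33.3%, beside 18.1% and 15.8% of all tested genes). Shfm1, a small subunit, was measured at 54.0, 64.8 and 81.4 CPM in control and at 136, 160, 140 and 125 CPM in the tumors labelled WDR11OE (log2 fold change 1.07, edgeR adjusted p = 0.00228). Cetn3, a centrin that also serves the centrosome, had a log2 fold change of 0.86 (edgeR adjusted p = 0.00119). The scaffold Mcm3ap and its partner Pcid2 were lower, with log2 fold changes of −0.33 and −0.36 (edgeR adjusted p = 0.0189 and 0.0243). The call of Mcm3ap was lost without control replicate 2 or 3, at −0.30 and −0.29. That of Pcid2 was lost without any 1 of the controls, without WDR11OE replicate 1 and with WDR11OE replicates 1 and 2 summed as 1 sample, at values between −0.41 and −0.33.

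Of 11 genes of the cap-binding and exon junction complexes, 4 were called higher and 3 lower (36.4% and 27.3%, beside 18.1% and 15.8% of all tested genes). The core exon junction genes Magoh and Magohb had log2 fold changes of 0.99 and 1.03 (edgeR adjusted p = 0.00129 and 0.00256). Casc3, another core component, had a log2 fold change of −0.80 (edgeR adjusted p = 0.00168), and the peripheral factor Acin1 one of −0.56 (edgeR adjusted p = 0.00268). Of 3 SR proteins that act as adaptors of the receptor, Srsf3 and Srsf7 were called higher, with log2 fold changes of 0.76 and 0.65 (edgeR adjusted p = 0.00146 and 0.0066).

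At the nuclear pore, 2 of 13 genes were called higher and 5 lower (15.4% and 38.5%, beside 18.1% and 15.8% of all tested genes). Ddx19a, from a pair of helicase genes that act in mRNA release on the cytoplasmic side, was measured at 47.9, 52.3 and 61.4 CPM in control and at 29.3, 30.5, 32.4 and 27.9 CPM in the tumors labelled WDR11OE (log2 fold change −0.84, edgeR adjusted p = 0.00138). Nup214, a nucleoporin of that side, had a log2 fold change of −0.77 (edgeR adjusted p = 0.00184), while Nup88, which binds Nup214, had one of 0.42 (edgeR adjusted p = 0.00703). The call of Nup88 was lost without WDR11OE replicate 1 or 2 and with both summed as 1 sample, at 0.34, 0.37 and 0.35. The log2 fold change of Nup50, another nucleoporin gene, was −0.57 (edgeR adjusted p = 0.0167). Its call was lost without control replicate 2 or 3, without WDR11OE replicate 1 and with the summed sample, at values between −0.64 and −0.50. Ranbp2 of the cytoplasmic filaments was also called higher, at 0.59 (edgeR adjusted p = 0.00176). Among 9 exportins and genes of the Ran cycle only Xpo1, which exports proteins and some RNAs, was called, at 0.63 (edgeR adjusted p = 0.00345).

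Of 10 tested adaptors and paralogs, 1 was called higher and 0 lower in the reported fit (10% and 0%, beside 18.1% and 15.8% of all tested genes). This was Fyttd1, at a log2 fold change of 0.37 (edgeR adjusted p = 0.00343). That value changed sign, to −0.056, with the GC trend removed. The call was also lost without WDR11OE replicate 1 or 2 and with both summed as 1 sample, at 0.33, 0.29 and 0.32. Alyref ranged from 96.0 to 140.3 CPM in control and from 121 to 159 CPM in the tumors labelled WDR11OE, and its paralog Alyref2 was at 4.45 CPM or less in all 7. The log2 fold changes of the others named by rule were 0.38 for Nxt2, 0.31 for Sarnp, −0.32 for Poldip3 and 0.00 for Chtop, listed as 2500003M10Rik, and none of these was called by edgeR in the reported fit. Nxt2 was called by limma-voom, by DESeq2 and with upper quartile scaling, at 0.41, 0.34 and 0.42, and Poldip3 with library size scaling, at −0.33. Without control replicate 3, Sarnp and Alyref were called, at 0.49 and 0.53.

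The genes whose log2 CPM followed Thoc1 most closely over the 7 tumors, among 14807, were Ccdc132, Gm9828, BC013529, Rif1 and Mcts1, with a Pearson r of at least 0.998. As with Thoc1, their tumors fell in 2 clusters by group, so r reflects the gap between the groups and little else. Rif1, which acts in replication timing and DNA repair, was at 211, 207 and 211 CPM in control and at 301, 304, 305 and 306 CPM in the tumors labelled WDR11OE. Of these 5 genes, Rif1, Mcts1 and Ccdc132 had a GC content near that of Thoc1, at 38.4%, 38.9% and 40.8%, and BC013529 and Gm9828 a higher one, at 45.8% and 53.1%. With the GC trend removed, the log2 fold change was 0.05 in place of 0.54 for Rif1, 0.33 in place of 0.69 for Ccdc132 and 0.45 in place of 0.61 for BC013529, and none of these was then called. Mcts1, at 0.64 in place of 1.10, and Gm9828, at 1.38 in place of 1.31, were called there too. The call of Rif1 was also lost with the exon length trend removed, where its log2 fold change was 0.73.

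Of the 20 nearest tested neighbors of the 10 genes on their chromosomes, 12 had a log2 fold change of the same sign as the export gene beside them, both neighbors of Thoc2, Thoc3 and Thoc5 among them. For Thoc5 these include AA413626, a pseudogene within Thoc5 on the same strand, with at most 59 counts in a tumor. Whether its reads come from Thoc5 was not tested. Of the 20, 5 were called higher and 3 lower, beside 18.1% and 15.8% of all tested genes, and their log2 fold changes ran from −1.60 to 2.58. Usp14 lies tail to tail with Thoc1 on the opposite strand, and their exons share 53 bases. Its log2 fold change was 0.25. Thoc6 shares 275 exon bases with Hcfc1r1 on the opposite strand, which had 3382 counts in all beside 7556 for Thoc6, and Thoc7 shares 314 with Gm11100, which had 1 count. The strand setting of the counting is not given in the sources used here, so the values of Thoc6 in particular are uncertain. None of the 10 coding sequences matched another place in the genome at 95% identity over 100 bases.

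Markers of other cell types were read beside these values. Of all tested genes, 18.1% were called higher and 15.8% lower, and each count of calls below stands beside these shares. All 8 skeletal muscle genes were called higher in the tumors labelled WDR11OE, where they summed to 89.7, 56.9, 132 and 44.9 CPM against 5.14, 3.51 and 3.16 CPM in control. Myh4 was the most abundant in each tumor labelled WDR11OE and Tnni2 in each control, and Mb had no count in any control. Of 6 genes of cycling cells 4 were called higher, and their sum was 1840, 1740 and 2240 CPM in control and 2470, 2530, 2360 and 2140 CPM in the tumors labelled WDR11OE. Top2a was the most abundant in each tumor labelled WDR11OE and Mki67 in each control. Mki67 averaged 818 CPM in control and 666 CPM in the others (log2 fold change −0.30), Mcm2 had a log2 fold change of −0.15, and neither was called. Neuron genes, of which none was called, summed to 443, 132 and 68.9 CPM in control and to 12.7, 29.0, 195 and 647 CPM in the others. Gad1 was the most abundant in WDR11OE replicates 3 and 4, Rbfox3 in WDR11OE replicates 1 and 2, Camk2a in control replicates 1 and 3, and Syt1 in control replicate 2. Of the endothelial genes 2 of 6 were lower, of the astrocyte genes 1 of 7 higher, and none of 6 oligodendrocyte or 8 microglia and macrophage genes was called. Of the granule neuron lineage none of 6 tested genes was called, and Atoh1 was at 0 in all 7 tumors. The noncoding RNA 7SK took between 2.35% and 2.77% of counts in control and between 3.38% and 4.27% in the tumors labelled WDR11OE. The part of these differences in the values of the export genes was not tested.

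RefSeq promoters (GRCm38.p6, 300 bases around the start of the gene) were found for 8 of the 10 genes. Thoc1 and Thoc3 have no entry. They were searched on both strands for the E-box CACGTG, which Myc and Max can bind, for the ETS motif CCGGAAGT and for the YY1 motif AAGATGGC, all chosen after the values were known. The E-box is in 7.15% of 32851 promoters and was found in Zc3h11a. The ETS motif is in 3.89% and was found in Thoc5 and Ddx39b, and the YY1 motif is in 2.75% and was found in Thoc2 and Zc3h11a. The promoters of 1 gene that was higher and 2 that were lower are shown, with motifs in capitals, because together they hold all the motifs searched for. They lie at chrX:41911852-41912151 (minus strand) for Thoc2, chr1:133661350-133661649 (minus strand) for Zc3h11a and chr17:35241496-35241795 (plus strand) for Ddx39b.
Thoc2: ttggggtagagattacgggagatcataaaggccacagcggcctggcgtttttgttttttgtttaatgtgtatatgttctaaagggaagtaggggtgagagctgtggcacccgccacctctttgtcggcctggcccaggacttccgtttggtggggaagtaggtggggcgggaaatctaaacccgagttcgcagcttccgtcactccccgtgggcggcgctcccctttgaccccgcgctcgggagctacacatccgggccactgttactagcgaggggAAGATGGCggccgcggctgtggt
Zc3h11a: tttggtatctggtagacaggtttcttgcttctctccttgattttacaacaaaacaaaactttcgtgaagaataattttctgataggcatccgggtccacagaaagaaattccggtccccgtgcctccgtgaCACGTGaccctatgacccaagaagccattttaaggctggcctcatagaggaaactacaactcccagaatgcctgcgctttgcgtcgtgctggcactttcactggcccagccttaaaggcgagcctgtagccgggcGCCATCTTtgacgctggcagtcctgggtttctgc
Ddx39b: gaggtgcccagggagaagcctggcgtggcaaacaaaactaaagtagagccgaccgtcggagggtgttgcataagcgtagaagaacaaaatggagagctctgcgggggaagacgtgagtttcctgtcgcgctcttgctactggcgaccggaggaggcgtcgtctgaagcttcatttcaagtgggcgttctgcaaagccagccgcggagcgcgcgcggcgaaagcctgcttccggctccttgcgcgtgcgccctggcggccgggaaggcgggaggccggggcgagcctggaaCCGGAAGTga
A match describes the letters in this window and is no evidence of binding.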

How the data were processed

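RNA-seq of 7 mouse G3 MBs was analysed from counts. Reads had been aligned to NCBIM37.67 by the StrongArm pipeline, and the authors deposited raw HT-seq counts for each GENCODE gene and tumor, without normalization. The submitters' processing notes also name CASAVA 1.7, STAR and BWA. The methods describe total stranded RNA, whereas the labels name a TruSeq RNA kit. Groups came from the treatment label, and replicate numbers, given in accession order, are names only.

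After filterByExpr and TMM scaling, groups were compared by the quasi-likelihood F test (two-sided) of edgeR 4.0.16 in R 4.3.3, with Benjamini-Hochberg adjustment over 17389 genes. A call was an adjusted p under 0.05 at any fold. The SE of a log2 fold change is its size divided by the square root of the quasi-likelihood F. Log2 CPM used a prior count of 2, and single genes were compared by an exact permutation test, where the smallest p is 0.0286. Exon lengths, GC content and positions came from GENCODE vM1 on NCBIM37, which matched 33606 of 34592 genes, and copies were sought with BLAST 2.17.0. A count of 3 is between 0.0329 and 0.0924 CPM, depending on the tumor.

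The members and gene lists were chosen with earlier results of these data known. The genes named are the 10 members, up to 3 higher and 3 lower calls of each list by smallest p, a fixed set of paralogs and adaptors, the 5 genes most like Thoc1, the nearest tested neighbors (by start position), and Wdr11, Myc, Trp53 and Cdkn2c. The row for human WDR11 was added after its values were seen. Alternatives were limma 3.58.1 with voom, DESeq2 1.42.0, scaling by library size, upper quartile or median of ratios, no filter, 1 CPM in at least 3 tumors, the 2-fold rule, loess corrections (span 0.5) for GC content or exon length, another transcript length, and leaving out each tumor. The sum of WDR11OE replicates 1 and 2 as 1 sample was chosen after seeing the data. The scripts were tested on simulated counts, in which edgeR and limma kept false calls near the nominal rate and DESeq2 made more of them, so its counts are read as liberal.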

Additional observations from a re-analysis of the deposited data

Results flagged for a closer look

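Among 67 named genes whose 4 tumors labelled WDR11OE were examined, 1 tumor stood far from the others for 2 genes, both neighbors of export genes. The gap over range was taken on a log scale. Chance alone does this for about 1 in 20 groups. For Usp14, beside Thoc1, WDR11OE replicate 4 was low at 88.7 CPM, with the others at 95.2, 95.8 and 96.1 CPM (gap over range 0.885). For Hcfc1r1, which overlaps Thoc6, WDR11OE replicate 1 was high at 8.71 CPM, with the others at 8.27, 8.32 and 8.27 CPM (gap over range 0.886). Both gaps were small in CPM. Which genes stand out depends on the scale. In CPM, WDR11OE replicate 4 also stood apart for Synpr, at 103 CPM, with the others at 0.426, 0.574 and 16.9 CPM. It did so for Gria3 too, at 29.6 CPM, with the others at 5.83, 5.40 and 9.12 CPM. None of the 10 export genes had such a tumor. The control group, with 3 tumors, is too small for this comparison.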

How the results depend on the processing

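No paired analysis was possible because the labels give the groups no shared replicate numbers. With the GC trend removed, genes called higher fell from 3150 to 771 and lower from 2744 to 1601, other export genes from 14 to 2 and from 10 to 3, and members from 3 to 1 and from 3 to 0. With the exon length trend removed, these counts were 1345 and 1652 for all genes, 7 and 4 for other export genes, and 1 for members called lower. The cause was not tested. The 2-fold rule, stricter by construction, left 410 and 600 of all genes, 2 and 0 other export genes, and 1 and 0 members. Without a filter 2093 genes were higher, with more genes tested. Members called lower were 1 with limma-voom and 1 with the filter at 1 CPM. With WDR11OE replicates 1 and 2 summed as 1 sample, a choice made after seeing the data that leaves fewer samples, 1629 genes were higher, 6 other export genes lower and 1 member lower.

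Leaving out 1 tumor at a time gave between 1560 and 2986 genes higher and between 2011 and 2868 lower, between 11 and 19 other export genes higher and between 4 and 10 lower, and between 2 and 3 members higher and between 1 and 2 lower. Genes called higher were 2045 without control replicate 2, 1560 without WDR11OE replicate 1 and 1657 without WDR11OE replicate 2. Other export genes called lower were 5 and 4 without control replicates 2 and 3, and 6 without WDR11OE replicate 1. Of all tested genes, 12.3%, 11.7% and 11.8% were called lower in these fits. A single member was called lower without control replicate 1 or 3, or without any 1 of the 4 WDR11OE tumors. Fewer samples entered each of these fits.

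The median log2 fold change of all genes was 0.09 with TMM, 0.12 with the upper quartile and 0.04 with the median of ratios, and the share of calls that were higher was 53.4%, 57.9% and 46.8%. It was 32.5% with the GC trend removed and 44.9% with the length trend removed. Thoc1 was called at any fold in every setting run, between 0.52 and 1.04, and met the 2-fold rule in 8 of 18. Thoc7, never called, was at −0.23 and −0.12 with the GC and length trends removed. Among other named genes, values that changed sign were, with the GC trend removed, Fyttd1 at −0.056, Nxt2 at −0.20, Wdr11 at −0.025, Usp14 at −0.15, Gria3 at −0.033 and Xiap at −0.33. Chtop (2500003M10Rik) was at 0.033 with the upper quartile and 0.008 with the length trend removed. Human WDR11 was at −0.44 with limma-voom, −0.005 with no filter and −0.18 with the summed sample. With 1 tumor left out, Chtop ran from −0.088 to 0.076, human WDR11 from −0.371 to 0.374, Gria3 from −0.457 to 1.091 and Atp6v1g2 from −1.063 to 0.192. The cause was not tested. Of the other comparisons of these genes, 842 kept direction and side of the threshold, 86 lost the call and 18 gained it.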
